A study of Mus musculus with 10 samples.

Results

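The genes described here encode nuclear subunits and assembly factors of mitochondrial complex I, measured in GTN muscle (musculus gastrocnemius) of control mice (ctrl) and of mice that lack mitochondrial thioredoxin reductase in myofibers (mTKO). Members were all probe sets whose symbol in the platform annotation starts with Nduf, together with *Acad9*, *Ecsit*, *Foxred1* and *Tmem126b*. This gave 50 genes among 19505 genes with a symbol, and each was read by 1 probe set. Of these, 38 carry a subunit symbol and 12 are assembly factors. Among the 38, *Ndufa4*, *Ndufa4l2* and *Ndufb4b* share the symbol but were kept apart from the 35 subunits proper. *Ndufb1* and the 7 mitochondrially encoded subunits have no named probe set in this annotation and were not analysed here.

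The ctrl mice were Txnrd2 fl/fl without Cre, and the mTKO mice were Txnrd2 fl/fl with 1 copy of ACTA1-Cre. Both alleles of *Txnrd2* were thus floxed in both groups. All 10 mice were males at day 60 on standard chow, with 5 mice per group and 1 array per mouse, and the floxed lines were on a C57BL/6 N background. The Cre transgene is driven by a skeletal actin promoter and recombines in myofibers of either type, so satellite cells and the other cells of whole GTN keep *Txnrd2*. In bulk muscle, fewer cells of a type and less RNA per cell cannot be told apart.

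Complex I is the largest enzyme of the respiratory chain. It oxidizes NADH in a peripheral arm that reaches into the matrix, passes the electrons over a row of iron-sulfur clusters to ubiquinone, and pumps protons through its membrane arm. The peripheral arm consists of an N module, which takes up electrons from NADH, and a Q module, which hands them to ubiquinone. The membrane arm has a proximal and a distal part. Assembly factors bring the modules together, modify single subunits and are not part of the finished enzyme. In muscle, the NADH made by the citric acid cycle and by fat oxidation enters the respiratory chain here, and the enzyme is also a source of mitochondrial superoxide. Superoxide dismutase turns this into hydrogen peroxide, which peroxiredoxins kept reduced by the mitochondrial thioredoxin system remove.

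The measured nuclear transcripts of complex I differed little between ctrl and mTKO muscle. Values are the deposited log2 signals, differences are mTKO minus ctrl, and a difference of 1 stands for a doubling. The subunit symbols had a median log2 difference of 0.04, with single genes between -0.32 (*Ndufv3*) and 0.40 (*Ndufb6*). The assembly factors had a median of -0.01, between -0.21 (*Foxred1*) and 0.34 (*Ndufaf7*). Over all 22206 probe sets the median was 0. None of the 50 genes passed an adjusted p under 0.05 in limma, a linear model fitted to all probe sets with Benjamini-Hochberg adjustment, and their adjusted p-values ran from 0.783 to 0.997. Over all probe sets 0.0045% passed, which was *Mthfd2* alone.

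At an unadjusted p under 0.05 from limma, *Ndufaf7* was the only member on the higher side and none stood on the lower side, against 3.1% higher and 3.26% lower among all probe sets. *Ndufaf7* no longer had a p under 0.05 when ctrl replicate 1, 4 or 5 or mTKO replicate 1, 3 or 5 was left out. No member had 5 mTKO arrays entirely above or below the 5 ctrl arrays, a pattern seen in 1.02% of all probe sets in either direction. The thresholds in the methods of the study (P under 0.05 in its unpaired test, and over 2-fold) were passed by 0 members and by 0.0585% of probe sets. With a fold change above 1.2 instead, *Ndufa2* and *Ndufaf7* passed on the higher side and 0 members on the lower side, against 2.58% and 2.73% of all probe sets.

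The width of the intervals sets what these arrays could have shown. For all 50 members the 95% interval of the difference (limma) lay inside a 2-fold change in either direction, as it did for 96.8% of all probe sets. For 40 members it lay inside a 1.5-fold change, against 56.9% of all probe sets and 64.6% of the probe sets brighter than the median. The other 10 were *Ndufb10*, *Ndufb6*, *Ndufa2*, *Ndufv3*, *Ndufa8*, *Ndufa4l2*, *Foxred1*, *Ndufaf2*, *Ndufaf7* and *Ndufaf8*. For 0 members did it lie inside a 1.2-fold change, so changes of that size were not resolved for any complex I gene with 5 arrays per group. The median standard error was 0.15 for subunit symbols, 0.17 for assembly factors and 0.19 for all probe sets.

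**Figure D1:**
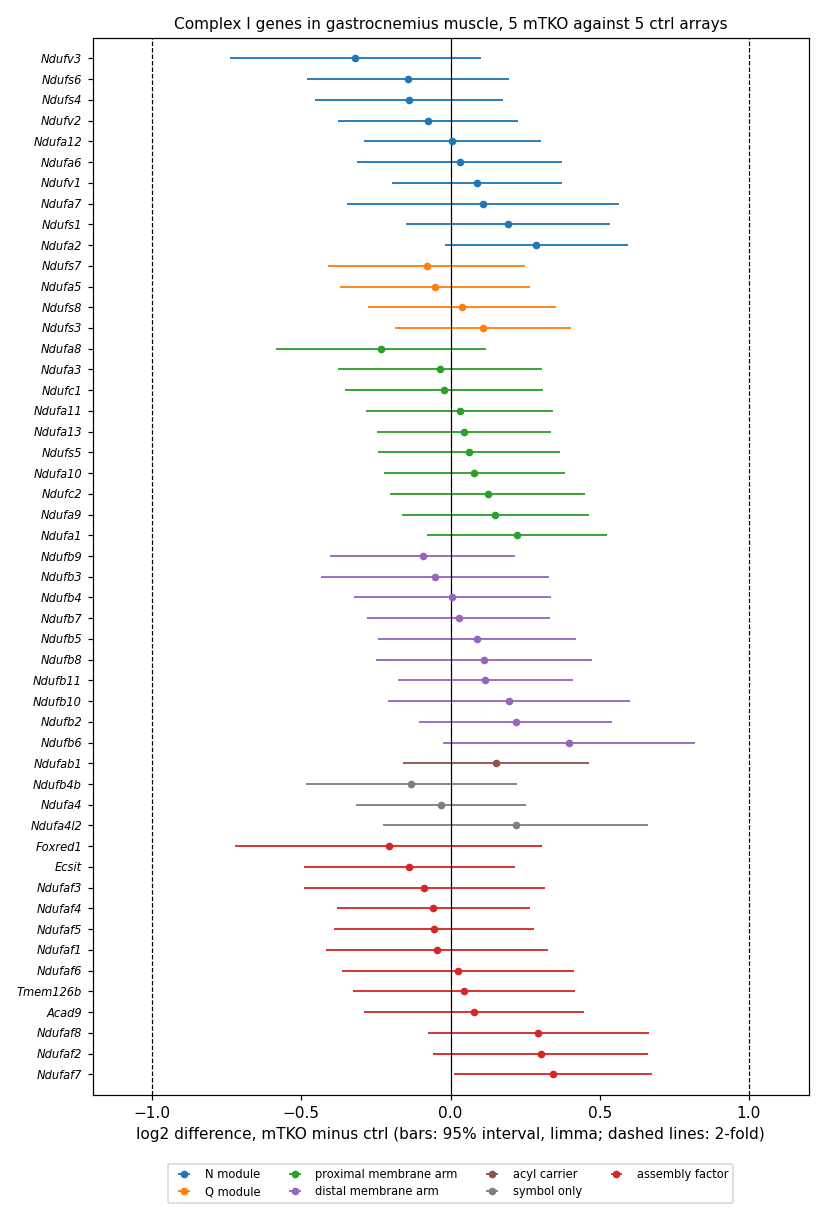
Log2 difference of signal (mTKO minus ctrl, horizontal axis) for each of the 50 genes, with points for the difference and bars for the 95% interval from limma, coloured by module. All bars stay between the dashed lines at a 2-fold change, and of the 50 only the bar of *Ndufaf7* lies wholly to 1 side of 0.

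The N module holds the entry point for electrons, and 10 of its genes were measured. Of these, 6 had a difference above 0 and 4 below, with a median of 0.02. *Ndufv1*, the subunit that binds NADH and the flavin cofactor, read 16.50, 16.51, 16.61, 16.50 and 16.44 in ctrl replicates 1 to 5 and 16.61, 16.50, 16.69, 16.69 and 16.51 in mTKO replicates 1 to 5. The groups overlapped and differed by 0.09 with a standard error of 0.13 (limma, unadjusted p = 0.520). *Ndufv2*, its iron-sulfur partner, read 16.40, 16.76, 16.76, 16.62 and 16.51 in ctrl and 16.42, 16.61, 16.63, 16.46 and 16.55 in mTKO. All 5 mTKO values fell within the ctrl range. *Ndufs1*, which carries several of the iron-sulfur clusters, read 15.26, 15.65, 15.17, 15.33 and 15.58 in ctrl and 15.49, 15.51, 15.97, 15.57 and 15.41 in mTKO. Each mTKO array lay above the ctrl mean of 15.40, the difference was 0.19 with a standard error of 0.16, and mTKO replicate 3 stood apart from the other mTKO arrays.

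Accessory subunits of the N module showed the lowest difference of all members and one of the higher ones. *Ndufv3*, a small subunit bound to the tip of the arm, read 8.59, 9.15, 9.12, 9.08 and 8.27 in ctrl and 8.89, 8.23, 8.60, 8.54 and 8.35 in mTKO. Ctrl replicates 2, 3 and 4 were above all mTKO arrays, while ctrl replicate 5 was below all but 1 of them. Its difference was -0.32 with a standard error of 0.20 (limma, adjusted p = 0.849, two-sided exact permutation test p = 0.183). This permutation test was run for each of the 50 genes. *Ndufa2*, a subunit with a thioredoxin-like fold, read 13.09, 13.29, 13.49, 13.51 and 13.27 in ctrl and 13.58, 13.68, 13.47, 13.64 and 13.72 in mTKO. Only mTKO replicate 3 reached into the ctrl range. The ctrl mean was 13.33 ± 0.17 (SD, n = 5) and the mTKO mean 13.62 ± 0.10 (SD, n = 5). They differed by 0.29 (standard error 0.14), which is 1.22-fold (limma, adjusted p = 0.810, exact permutation test p = 0.0238).

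*Ndufs4*, needed for a stable N module and the gene deleted in a mouse model of Leigh syndrome, differed by -0.14 (95% interval, -0.45 to 0.18). *Ndufs6*, which binds zinc next to it, likewise by -0.14 (-0.48 to 0.19). For both, 4 of 5 mTKO arrays lay below the ctrl mean. *Ndufa6*, *Ndufa7* and *Ndufa12* differed by 0.03, 0.11 and 0.01. *Ndufa12* had the smallest spread of any member in ctrl, with 16.80 to 16.90, and a wider one in mTKO, with 16.63 to 17.05.

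In the Q module 4 genes were measured, 2 with a difference above 0 and 2 below, and the median was -0.01. *Ndufs3*, a core subunit that joins the module early, read 16.56, 16.88, 16.84, 16.93 and 16.80 in ctrl and 16.99, 16.94, 16.92, 16.92 and 16.79 in mTKO. Apart from the low ctrl replicate 1 the 2 groups lay close together, and the difference was 0.11 with a standard error of 0.14. *Ndufs7*, which holds the last iron-sulfur cluster before ubiquinone, read 15.63, 15.66, 15.43, 15.30 and 15.17 in ctrl and 15.55, 15.38, 15.49, 15.14 and 15.23 in mTKO. The groups overlapped almost entirely, with a difference of -0.08. *Ndufs8*, which carries the pair of clusters before it, read 15.30, 15.67, 15.75, 15.72 and 15.35 in ctrl and 15.55, 15.71, 15.65, 15.54 and 15.53 in mTKO. Every mTKO value lay inside the ctrl range, and the difference of 0.04 turned negative without ctrl replicate 1 and also without ctrl replicate 5. *Ndufa5*, an accessory subunit, differed by -0.05.

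The proximal membrane arm was measured by 10 genes, 7 with a difference above 0 and 3 below, at a median of 0.05. *Ndufa1*, a small X-linked subunit near the junction of the arms, read 12.46, 12.41, 12.81, 12.61 and 12.51 in ctrl and 12.75, 12.70, 12.83, 12.93 and 12.70 in mTKO. Without ctrl replicate 3 the groups did not overlap. The difference was 0.22 with a standard error of 0.14 (limma, adjusted p = 0.852, exact permutation test p = 0.0397). *Ndufa8*, a cysteine-rich protein of the intermembrane space, read 14.82, 15.20, 15.08, 15.14 and 14.70 in ctrl and 14.42, 14.97, 15.00, 14.66 and 14.72 in mTKO. Its difference of -0.23, with a standard error of 0.17, was the lowest in the membrane arm (exact permutation test p = 0.151).

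The other proximal genes lay between -0.04 (*Ndufa3*) and 0.15 (*Ndufa9*, which binds a nucleotide cofactor beside the Q module). *Ndufa3* varied widely in ctrl, from 15.26 to 15.92, and little in mTKO, from 15.41 to 15.57. *Ndufc1* and *Ndufc2* differed by -0.02 and 0.12. *Ndufa10*, *Ndufa11*, *Ndufa13* and *Ndufs5* differed by 0.08, 0.03, 0.04 and 0.06.

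Of 10 distal genes, 8 had a difference above 0 and 2 below, and the median of 0.10 was the highest among the 4 structural modules. *Ndufb6* had the largest difference of the 50 genes. It read 13.51, 14.54, 13.69, 13.90 and 14.20 in ctrl and 14.30, 14.60, 14.51, 14.00 and 14.42 in mTKO. The ctrl arrays were spread over most of the mTKO range and below it, with ctrl replicate 2 above 4 of the 5 mTKO arrays. From a ctrl mean of 13.97 ± 0.41 (SD, n = 5) to an mTKO mean of 14.37 ± 0.23 (SD, n = 5), the difference of 0.40 had a standard error of 0.20 and a 95% interval from -0.02 to 0.82 (limma, adjusted p = 0.810, exact permutation test p = 0.103). Leaving out ctrl replicate 1 lowered the difference to 0.28, and leaving out ctrl replicate 2 raised it to 0.54.

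*Ndufb2*, another small membrane subunit, read 14.06, 14.11, 13.90, 14.23 and 14.28 in ctrl and 14.45, 13.99, 14.40, 14.35 and 14.48 in mTKO. Here 4 mTKO arrays exceeded every ctrl array, and mTKO replicate 2 lay below 4 of the ctrl arrays. The difference was 0.22 with a standard error of 0.15 (limma, adjusted p = 0.860). *Ndufb10* differed by 0.20, *Ndufb11* by 0.12, *Ndufb8* by 0.11 and *Ndufb5* by 0.09. *Ndufb7*, *Ndufb4* and *Ndufb3* lay between -0.05 and 0.03, and *Ndufb9*, which binds the acyl carrier protein at the distal end, had a difference of -0.09. *Ndufab1*, the mitochondrial acyl carrier protein that sits in both arms, differed by 0.15 (95% interval, -0.16 to 0.46), and its 5 mTKO arrays all lay above the ctrl mean.

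Genes that carry the symbol only gave no larger differences. *Ndufa4*, now counted with cytochrome c oxidase, read 17.66 to 17.89 in ctrl and 17.68 to 17.83 in mTKO and differed by -0.03. *Ndufa4l2*, its hypoxia-induced relative, differed by 0.22 with a standard error of 0.21, with its highest value, 8.71, in mTKO replicate 4. *Ndufb4b* differed by -0.13. It is a near copy of *Ndufb4*, which differed by 0.01, and probes of the pair may bind both transcripts, so the values of both are uncertain.

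Among the assembly factors, 6 had a difference above 0 and 6 below. *Ndufaf7*, which encodes a mitochondrial methyltransferase needed for assembly, had the smallest p of the 50 genes. It read 9.64, 9.90, 9.71, 9.27 and 9.58 in ctrl and 10.14, 9.81, 10.07, 9.81 and 9.99 in mTKO. Only ctrl replicate 2 overlapped with the mTKO arrays, of which replicates 2 and 4 lay below it. With means of 9.62 ± 0.23 (SD, n = 5) and 9.96 ± 0.15 (SD, n = 5) the difference was 0.34, a fold change of 1.27 with an interval from 1.01 to 1.60. Its unadjusted p of 0.0431 became 0.783 after adjustment over all probe sets (limma). Exact permutation of the arrays gave p = 0.0238, where the smallest that 5 arrays against 5 allow is 0.00794.

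A further pair of factors had all 5 mTKO arrays above the ctrl mean. *Ndufaf2*, a relative of the subunit NDUFA12 that holds its place until the N module is attached, read 7.91, 7.77, 7.33, 7.14 and 7.45 in ctrl and 7.88, 7.79, 7.70, 8.03 and 7.71 in mTKO. The mTKO values kept within a narrow range that overlapped with ctrl replicates 1 and 2, and only mTKO replicate 4 lay above all ctrl arrays. The difference was 0.30 with a standard error of 0.17 (limma, adjusted p = 0.834). *Ndufaf8*, the partner of *Ndufaf5*, read 7.56, 8.11, 8.32, 8.01 and 8.05 in ctrl and 8.43, 8.55, 8.05, 8.05 and 8.44 in mTKO. Replicates 1, 2 and 5 of mTKO exceeded every ctrl array, and without the low ctrl replicate 1 the difference of 0.29 fell to 0.18.

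The complex that builds the membrane arm is formed in part by *Ndufaf1*, *Ecsit*, *Acad9* and *Tmem126b*, and its genes did not move in 1 direction. *Ndufaf1* ranged from 11.28 to 11.85 in ctrl and from 11.26 to 11.89 in mTKO, with a difference of -0.04. *Ecsit* ranged from 10.52 to 11.19 and from 10.59 to 10.92, with a difference of -0.14. *Acad9*, which is also an acyl-CoA dehydrogenase, ranged from 10.35 to 11.04 and from 10.47 to 11.07, with a difference of 0.08. *Tmem126b* ranged from 10.44 to 11.20 and from 10.66 to 10.97, with a difference of 0.05. For each of the 4 the groups overlapped over most of their range.

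Factors of the Q module stayed equally close to their ctrl levels. *Ndufaf3* and *Ndufaf4*, which bind the early Q module, differed by -0.09 and -0.06, with intervals from -0.49 to 0.32 and from -0.38 to 0.27. *Ndufaf5*, which hydroxylates an arginine of NDUFS7, differed by -0.06, and *Ndufaf6* by 0.03. *Foxred1*, a flavoprotein of later assembly steps, had the widest spread of the members in mTKO. Its signal ran from 7.03 to 8.01 in ctrl and from 6.83 to 8.12 in mTKO, where replicate 2 was the highest array, and its difference of -0.21 had a standard error of 0.24. Without that array the difference was -0.42.

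**Figure D2:**
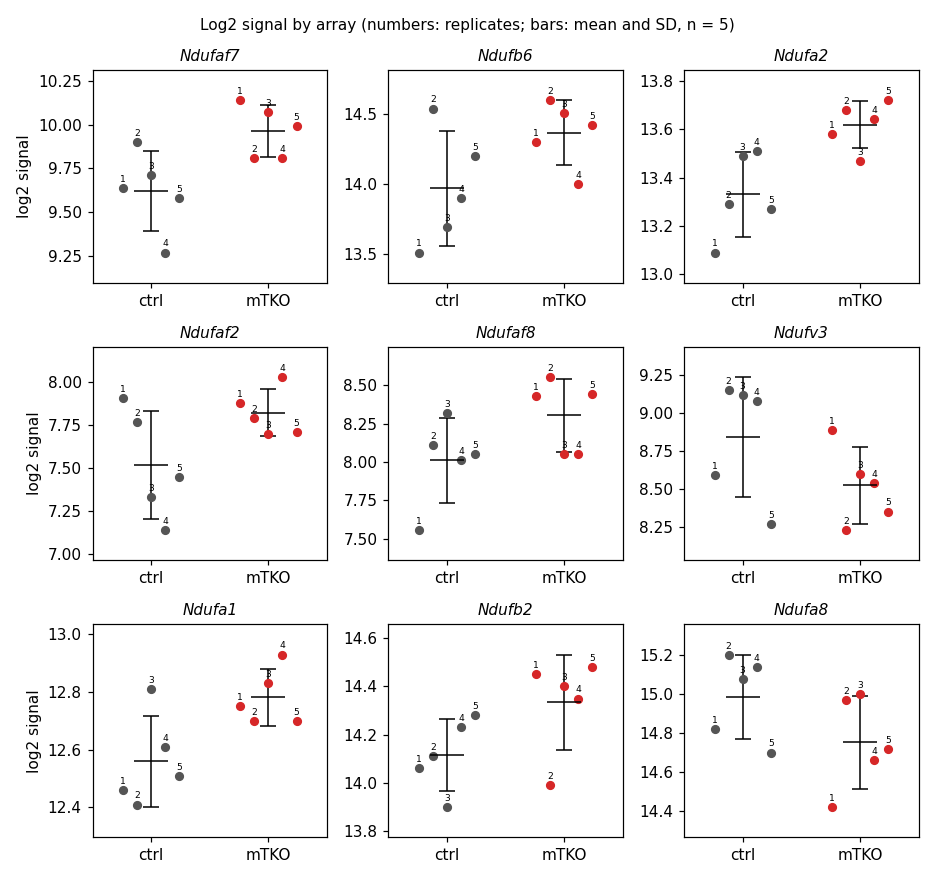
Log2 signal (vertical axis) in each ctrl and mTKO array for the 9 genes with the smallest p in limma, each point labelled with its replicate number, with horizontal marks for the mean and bars for the SD (n = 5). In all 9 panels the groups overlap, for *Ndufa2* through mTKO replicate 3 alone.

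Counted over all members, 31 had a difference above 0 and 19 below. Among all probe sets 49.9% lay above 0, and 52.2% of those at or above the median signal, to which every member belonged (mean signals between percentiles 62.4 and 99.7 of all probe sets). Subunit symbols gave 25 above and 13 below, and the 35 subunits proper 24 and 11. In 11 members all 5 mTKO arrays lay above the ctrl mean, against 7.5% of all probe sets, and in 0 members did all lie below it, against 7.69%. The 11 were *Ndufab1*, *Ndufb5*, *Ndufb6*, *Ndufb11*, *Ndufa1*, *Ndufa2*, *Ndufc2*, *Ndufs1*, *Ndufaf2*, *Ndufaf7* and *Ndufaf8*. This count was made after the values had been seen, and complex I genes share their arrays, so they are not independent of each other. It rested largely on ctrl replicate 1. Without that array 4 members had all mTKO arrays above the ctrl mean and 5 had all below it, against 8% and 7.61% of all probe sets. Without ctrl replicate 5 these counts were 9 and 5, against 8.63% and 8.79%.

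Within a genotype, single arrays had most complex I genes low or most of them high. Relative to the mean of each gene over 10 arrays, the median of the 38 subunit symbols was -0.16, 0.12, 0.04, -0.00 and -0.11 in ctrl replicates 1 to 5. In mTKO replicates 1 to 5 it was 0.01, 0.03, 0.08, -0.10 and 0.02. The ctrl arrays thus spanned the whole range of the mTKO arrays and lay on both sides of it. In ctrl replicate 1 only 8 of 38 subunit symbols were above their own mean and in ctrl replicate 5 only 10, while in ctrl replicate 2 there were 29. Of the mTKO arrays, replicate 4 was low with 12, and the others had 21 to 27. Leaving out ctrl replicate 1 moved the median difference of the subunit symbols from 0.04 to 0.02, and 21 of 38 were then above 0.

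**Figure D3:**
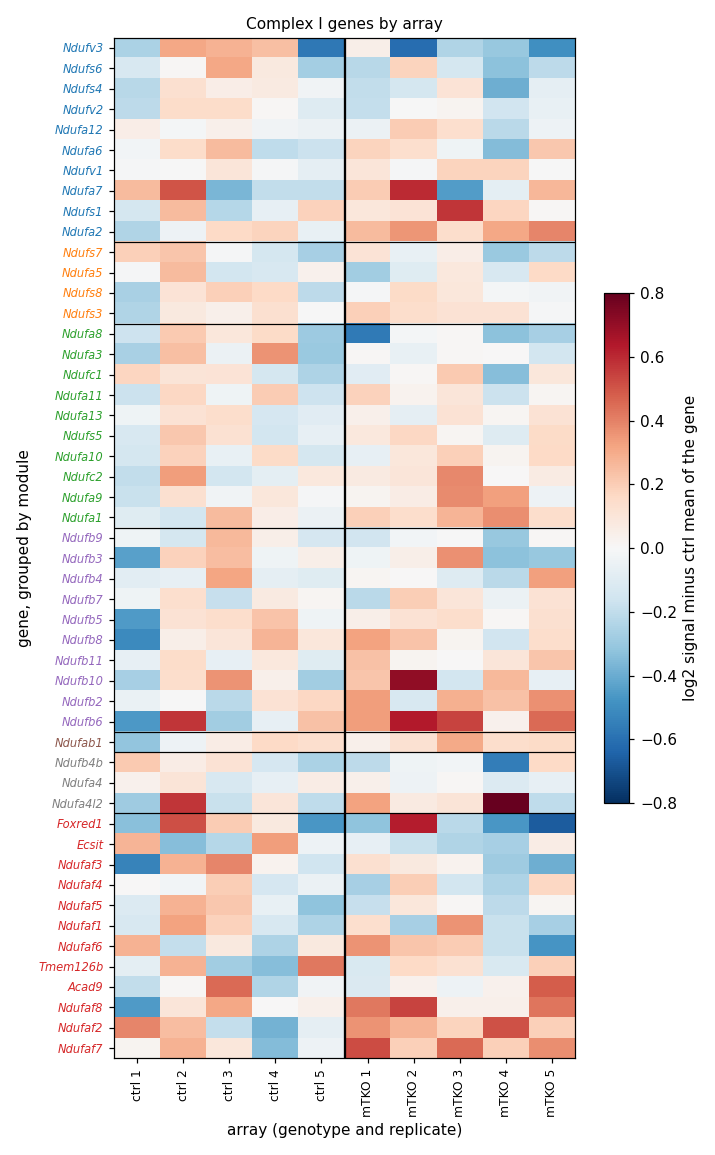
Log2 signal of each gene minus its ctrl mean (colour) in the 10 arrays (columns), with genes in rows grouped by module and gene names coloured as in the plot of differences. Ctrl replicates 1 and 5 are mostly blue columns, while mTKO replicate 4 mixes blue and red. No block of rows separates the 5 mTKO arrays from the 5 ctrl arrays.

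Levels varied less for the median complex I gene than for the median probe set. The median SD within a group was 0.21 in ctrl and 0.17 in mTKO for the 50 members, against 0.28 and 0.29 for all probe sets. The members are all brighter than the median probe set, and SDs of equally bright probe sets were not compared. The median standard error was 0.16 for the members, 0.18 for probe sets at or above the median signal and 0.19 for all. The SD was lower in mTKO than in ctrl for 28 of the 50, against 45.9% of all probe sets.

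Gene lists around complex I showed values of similar size. Of 10 other complex I assembly factors 9 were measured, 5 above 0 and 4 below, at a median of 0.05. They ran from -0.28 (*Dmac2*) to 0.31 (*Tmem70*, which also serves ATP synthase), and none had an unadjusted p under 0.05 in limma. The 10 genes for other dehydrogenases that reduce ubiquinone, such as the subunits of succinate dehydrogenase, gave 5 above 0 and 5 below, at a median of -0.00. Among 10 measured genes of mitochondrial content 8 were above 0 and 2 below, at a median of 0.08. Of these, *Tfam*, which packages mitochondrial DNA, had the highest difference at 0.40 (limma, unadjusted p = 0.0478, adjusted p = 0.783). *Cs*, citrate synthase, differed by 0.05 and *Vdac1*, the outer membrane channel, by -0.10.

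Markers of the tissue and of the knockout were read on the same arrays, whose median signals were between 6.06 and 6.14. *Txnrd2* had a mean log2 signal of 8.74 in ctrl and 7.74 in mTKO, with no overlap between the groups. The adjusted p was 0.118 (limma), and the probe set may lie outside the part removed by Cre. The 9 myofiber markers were bright and even, with a summed log2 level of 22.30 to 22.37 in ctrl and 22.30 to 22.34 in mTKO. The 7 slow fiber markers, by contrast, varied between mice, with a summed log2 level of 17.15 to 17.63 in ctrl and 16.78 to 18.09 in mTKO. Of the 7, 5 had a difference above 0 and 2 below, at a median of 0.29, and 0 had an unadjusted p under 0.05. Per array, their median deviation was lowest in mTKO replicate 2 (-0.78) and ctrl replicate 1 (-0.45). It was highest in mTKO replicate 4 (0.61) and mTKO replicate 3 (0.43). In these arrays, in the same order, the complex I subunit symbols had median deviations of 0.03, -0.16, -0.10 and 0.08. The part of fiber makeup in the complex I values was not tested. Among markers of satellite cells, endothelium, fibroblasts, leukocytes, adipocytes, Schwann cells and erythroid cells, none passed the adjusted threshold. *Pax7* (0.47), *Adgre1* (-0.54) and *Lep* (-0.46) had an unadjusted p under 0.05 in limma, as did 3.1% (higher) and 3.26% (lower) of all probe sets. Their mean signals were at percentiles 32.5, 49.7 and 21.9. Of the other satellite cell genes, *Myf5* and *Calcr* differed by 0.37 and 0.02. Leukocyte genes *Ptprc* and *Csf1r* differed by -0.18 and 0.002, and adipocyte genes *Adipoq*, *Plin1* and *Fabp4* by -0.63, -0.46 and 0.22.

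**Figure D4:**
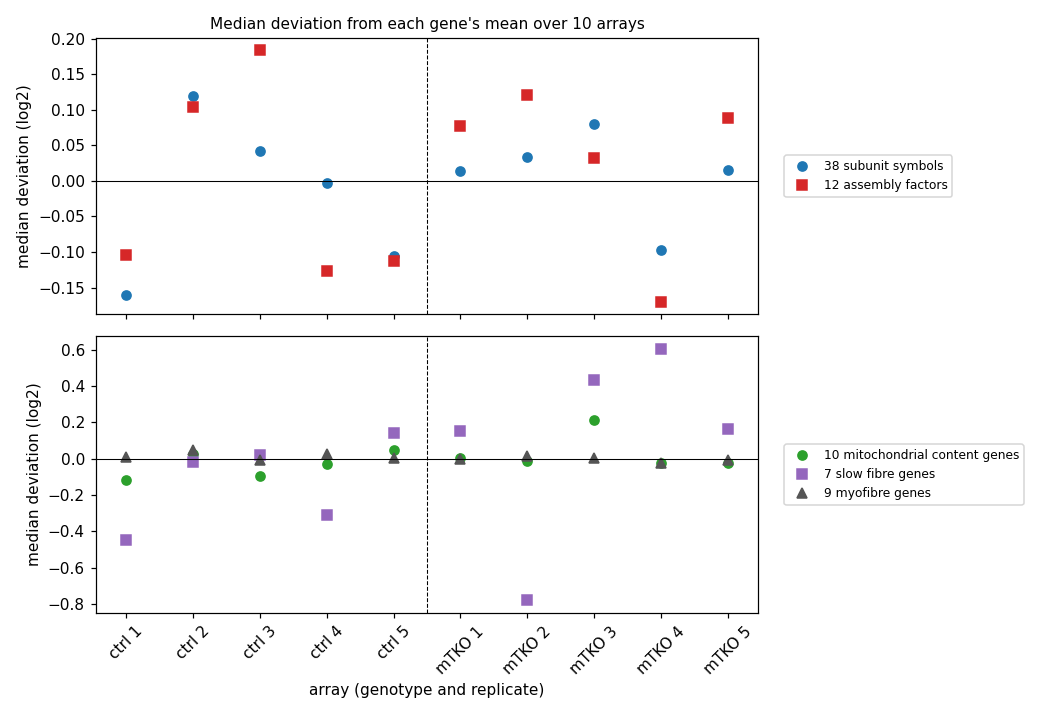
Median deviation from the mean of each gene over 10 arrays (log2, vertical axis) in each array, for complex I subunit symbols and assembly factors (upper panel) and for genes of mitochondrial content, slow fibers and myofibers (lower panel). The subunit medians of ctrl and mTKO arrays overlap, and slow fiber genes range from -0.78 to 0.61 while myofiber genes stay near 0.

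Promoter sequence played no part in the choice of members and was described separately. RefSeq promoters (build GRCm38.p6, from 250 bases before to 50 bases after the gene start) were found for 44 of the 50 genes, in 46 entries. Both strands were searched for 8 motifs, which were chosen after the differences were known. The letters AGATGGCG, the core of a YY1 site, occurred in 7 of the 46 entries (15.2%) and in 1.95% of all 32851 promoters in the table. In all 7 they lay after the gene start, on the coding strand. Matches after the gene start, on either strand, were found in 0.895% of all promoters. A palindromic NRF1 site, the capitals shown further on, occurred in 3 of the 46 (6.5%) against 0.971% of all promoters.

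The YY1 matches are shown with flanking bases because the same letters stand shortly after the start in genes of both arms and in assembly factors. Capitals mark the motif:

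Ndufa9 (chr6:126849100-126849121, minus strand): tgggagaAGATGGCGgccgccg

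Ndufc1 (chr3:51408918-51408939, minus strand): cggaacaAGATGGCGccgtccg

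Ndufs6 (chr13:73328434-73328455, minus strand): accggcaAGATGGCGgcggtgc

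Ndufs7 (chr10:80249467-80249488, plus strand): gaggccaAGATGGCGgcgctgg

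Ndufaf8 (chr11:120098938-120098959, plus strand): gggcccaAGATGGCGgcgccct

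Tmem126b (chr7:90475963-90475984, minus strand): ggcgctaAGATGGCGgcgtccc

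In all 6 the motif is preceded by an A. The match in *Ndufs4* lies too close to the end of the window to be shown with its flank. The first matched base was 11 to 36 bases after the gene start. The letters contain ATG, and whether translation starts there was not examined. The differences of these 7 genes lay on both sides of 0, at 0.15 (*Ndufa9*), -0.02 (*Ndufc1*), -0.14 (*Ndufs4*), -0.14 (*Ndufs6*), -0.08 (*Ndufs7*), 0.29 (*Ndufaf8*) and 0.05 (*Tmem126b*).

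The 3 NRF1 matches, with the motif in capitals, begin at -60 in *Ndufa11*, at -113 in *Ndufaf4* and at 16 in *Ndufaf5*, counted in bases from the gene start:

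Ndufa11 (chr17:56717695-56717718, plus strand): gcactgcGCGCATGCGCgcacgcc

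Ndufaf4 (chr4:24897963-24897986, plus strand): gatgtctGCGCATGCGCctgtgcg

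Ndufaf5 (chr2:140170655-140170678, plus strand): cccgttgGCGCATGCGCctaatag

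These genes differed by 0.03, -0.06 and -0.06. Of the other motifs, the ETS core CCGGAAG occurred in 15.2% of member promoters and 8.86% of all, the SP1 box GGGCGG in 54.3% and 35.7%, the CCAAT box CCAAT in 37.0% and 37.4%, and the TATA box TATAAA in 10.9% and 13.6%. The estrogen-related receptor site TCAAGGTCA occurred in 0 of 46 member promoters and 0.423% of all. The element TGATGNAAN that ATF4 and CHOP share also occurred in 0 of 46, against 3.95% of all. *Ndufaf8* holds both an ETS and a YY1 match, and the matched letters of the 2 do not overlap. A match of letters shows neither binding nor use of a site, and no match in this window says nothing of the factor.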

How the data were processed

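Total RNA from GTN of 5 ctrl and 5 mTKO mice was measured on Affymetrix Clariom S arrays. The authors summarized probe sets into log2 signals by SST-RMA (Affymetrix Expression Console 1.4), which corrects background and brings the arrays to a common distribution. The deposited log2 values, given to 2 decimals, were used as they stand. Since arrays were brought to a common scale, a change shared by all transcripts cannot be seen.

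For the comparison of groups, limma 3.58.1 was run in R 4.3.3 at default settings (Benjamini-Hochberg over 22206 probe sets, threshold 0.05) and with the methods' t-test. For single genes, the difference of means was also tested by exact permutation (two-sided). With 5 arrays per group, the number of arrays limits the precision. The steps were tested on simulated data. The platform annotation gives 1 symbol to 19572 probe sets, several to 0 and none to 2634. The genome build behind the probe sets is not given in the sources used here.

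The members and lists were chosen with earlier results of these data known. Named genes were the nuclear core subunits, all assembly factors, the 5 subunit genes of smallest p in each direction, the brightest 2 and dimmest 2 members, the 2 of highest SD and the genes that share the symbol only. The remaining members were named by module. Alternatives were array weights, eBayes with trend and robust, quantile normalization, centring on the median, a filter on dim probe sets, averaging probe sets that share a symbol, a block for the replicate number, other thresholds and leaving out each array. Promoters were searched with Python 3.11.15, and figures were drawn with matplotlib 3.10.9.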

Additional observations from a re-analysis of the deposited data

Results flagged for a closer look

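In 6 of 100 groups (50 genes in 2 genotypes) 1 array stood apart from the other 4, with a gap to its nearest neighbour of more than 0.71 of the whole range of the group. Chance flags about 1 in 20 groups, so 6 of 100 is close to what chance gives. *Ndufb4* in ctrl replicate 3 had the widest gap, 0.927 of the range, with a log2 signal of 16.82 above the next value of 16.44. A further 3 cases were in mTKO and above the others, with gaps of 0.763 for *Ndufc2* in replicate 3 (16.50 above 16.21), 0.714 for *Ndufs1* in replicate 3 (15.97 above 15.57) and 0.750 for *Acad9* in replicate 5 (11.07 above 10.62). *Ndufb2* in mTKO replicate 2 (gap 0.735) lay below the other arrays, at 13.99 against 14.35. *Ndufb8* in ctrl replicate 1 (gap 0.718) did so too, at 10.88 against 11.44, in the array with the lowest complex I levels.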

How the results depend on the processing

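No member passed an adjusted p under 0.05 in any alternative run, including the methods' t-test with adjustment and an adjusted threshold of 0.10. The count of members at an unadjusted p under 0.05 was 1 in the main limma fit, 3 with trend and robust eBayes, 2 with quantile normalization, 2 among probe sets at or above the median signal and 0 to 2 when 1 array was left out (0 without mTKO replicate 1, 3 or 5). Without ctrl replicate 1, 4 or 5 the single member was *Ndufaf2*, *Ndufa2* or *Ndufv3* in place of *Ndufaf7*. Members with non-overlapping groups numbered 0, but 1 after centring each array on its median (*Ndufa2*) and 0 to 1 when 1 array was left out. The count past the methods' thresholds rose from 0 to 2 with a fold change above 1.2. Trend and robust eBayes called 9 probe sets over all, against 1 in the main fit, and the filter on dim probe sets called 3, none of them members. Array weights, centring, averaging by symbol, the replicate block and leaving out mTKO replicate 2, 4 or 5 each called 1. Quantile normalization and leaving out any ctrl array or mTKO replicate 1 or 3 called 0 of 22206 probe sets. In those runs a count of 0 members is not particular to complex I.

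The median difference of subunit symbols ranged from 0.02 to 0.08 and that of assembly factors from -0.05 to 0.03 when 1 array was left out. Of 510 alternative values of the 30 named genes, 494 kept their direction and 16, in 7 genes, did not. The 494 include values that could not change direction. Trend and robust eBayes, the filter on dim probe sets, averaging by symbol and the replicate block leave the difference of each member as it is. All 16 changes of direction arose when 1 array was left out. Leaving out 1 array gave ranges of -0.0265 to 0.086 for *Ndufs8*, -0.1455 to 0.0365 for *Ndufaf1*, -0.039 to 0.151 for *Tmem126b*, -0.023 to 0.191 for *Acad9*, -0.0575 to 0.15 for *Ndufaf6*, -0.1365 to 0.0135 for *Ndufaf5* and -0.221 to 0.009 for *Ndufaf3*. The cause was not tested. The count of members with every mTKO array above the ctrl mean, an alternative added after seeing the data, was 4 to 14 when 1 array was left out. Same-numbered ctrl and mTKO arrays correlated at 0.04, 0.16, -0.04, 0.02 and 0.06 in their deviations. The labels name no pairing, and these values cannot show whether same-numbered mice had more than a number in common. With the replicate number as a block, 0 members passed the adjusted threshold and 1, *Ndufb6*, had an unadjusted p under 0.05.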
